A study of Mus musculus with 8 samples.

Results

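The Bcl2 family decides whether the outer mitochondrial membrane stays intact when a cell is stressed. Its survival proteins (Bcl2, Bcl2l1, Mcl1 and the A1 proteins) hold the pore-forming effectors Bax and Bak1 in check, and the BH3-only proteins (among them Bcl2l11, Bid and Bbc3) bind the survival proteins or the effectors and tip the balance towards membrane permeabilisation, cytochrome c release and caspase activation. In macrophages, growth factor signals through M-CSF keep this balance on the survival side, and Bnip3 and its relative Bnip3l link the family to the removal of mitochondria by autophagy. The family was described here through 10 genes chosen by name from textbook membership, with earlier results of these data known. They were Bcl2l11, Bid, Bbc3, Bnip3, Bax, Bak1, Bcl2, Bcl2l1, Mcl1 and Bcl2a1a. Of these 10 genes, 8 were represented on the array by 23 of its 25697 probes, while Bax and Bcl2a1a were not analysed here.

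Transcripts were measured in macrophages grown from C57BL/6 mouse bone marrow, with 2 arrays in each of 4 groups. The groups were unstimulated cells, cells given recombinant interferon gamma (IFNγ, 10 ng/ml), cells given sheep red blood cells (SRBC) coated with IgG2a antibody at 10 per macrophage, and cells given both, each stimulus for 6 h on day 8. All 4 groups had been replated on day 7 in medium conditioned by L929 cells, which supplies M-CSF, so every value below was measured with a survival factor present. Values are intensities of bead-bound probes on a linear scale, and a background floor was set at an intensity of 200. Changes are differences of log2 intensity ± the standard error (SE) of limma's fit, p-values are limma's, adjusted over all 9356 features tested, and a change was called at an adjusted p under 0.05. Because background was not subtracted, fold changes of dim probes are understated.

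In 1 or more groups, 15 of the 23 probes passed the floor on both arrays, and they covered 7 of the 8 genes. The brightest probe stood for each gene. The single probe of Bnip3 lay below the floor on all 8 arrays, with intensities from 139.5 to 175.2, so that Bnip3 was not well above background and received no test. The correlation between arrays was 0.992 to 0.994 within groups and 0.952 to 0.984 between them. All 6 macrophage marker genes with a probe lay above the floor on all 8 arrays. Of 7 neutrophil marker genes with a probe, 4 lay above it on all 8 arrays. The summed intensity of all 7 was 3470 to 3568 in unstimulated cells and 3547 to 3823 with IFNγ. It was 2899 to 3472 with opsonised SRBC and 4231 to 4300 with both. Of 5 tested neutrophil genes, 2 were called higher with both stimuli and 0 lower, where 14.5% of all features rose. These were the calprotectin genes S100a8 (0.39 ± 0.13, adjusted p = 0.0225) and S100a9 (0.35 ± 0.13, adjusted p = 0.0359). S100a9 fell with opsonised SRBC (-0.39 ± 0.13, adjusted p = 0.0478). The part of the neutrophil markers in the changes below was not tested. Of the markers of T and NK, erythroid, mast, fibroblast and dendritic cells, 0 in each list lay above the floor on all 8 arrays, and of the B cell markers 1 did. In whole cultures, fewer cells of a type and less RNA per cell cannot be told apart.

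Sequences before the starts of Bcl2l11, Bbc3, Bid and Bak1 are shown first, with the sites searched for in them. These were the members called with a single stimulus against unstimulated cells. The 250 bases before the start of transcription were taken from RefSeq (build GRCm38.p6) for all 10 members, 15 promoters in all, and searched on both strands for 2 motifs: the FoxO site GTAAACA and the ISRE core GAAANNGAA bound by interferon regulatory factors. The FoxO letters occur in 3.17% of 32851 mouse promoters and the ISRE core letters in 7.13%. Of the 15 promoters of the members, 2 hold the FoxO letters, 1 of Bcl2l11 and 1 of Bbc3, and 0 hold the ISRE core letters. In the first of the 2 starts of Bcl2l11 (chr2:128125788-128126037, plus strand) the match lies 227 to 221 bases before the start on the gene's own strand. In the second of the 3 starts of Bbc3 (chr7:16310011-16310260, plus strand) it lies 167 to 161 bases before the start on the opposite strand, so that the strand printed reads TGTTTAC. Capitals mark the matches.
Bcl2l11: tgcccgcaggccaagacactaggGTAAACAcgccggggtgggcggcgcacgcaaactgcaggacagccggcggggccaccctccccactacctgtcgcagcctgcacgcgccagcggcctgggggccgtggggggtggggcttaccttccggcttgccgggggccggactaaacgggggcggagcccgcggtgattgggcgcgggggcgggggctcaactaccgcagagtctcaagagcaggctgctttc
Bbc3: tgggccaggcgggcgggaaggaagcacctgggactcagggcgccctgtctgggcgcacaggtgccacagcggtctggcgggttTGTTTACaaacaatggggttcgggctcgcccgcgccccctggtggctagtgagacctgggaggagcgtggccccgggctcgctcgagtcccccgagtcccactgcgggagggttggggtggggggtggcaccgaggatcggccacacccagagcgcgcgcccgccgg
These windows are given for the 2 pro-apoptotic members that opsonised SRBC lowered. The other starts of these 2 genes hold neither motif and are not printed. A match describes the letters only and does not show that a factor binds there.

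The windows of Bid (chr6:120916825-120917074, minus strand) and Bak1 (chr17:27028628-27028877, minus strand) are given because these were the 2 members that IFNγ raised. Neither holds either of the 2 motifs, which says only that these letters are not in the 250 bases searched.
Bid: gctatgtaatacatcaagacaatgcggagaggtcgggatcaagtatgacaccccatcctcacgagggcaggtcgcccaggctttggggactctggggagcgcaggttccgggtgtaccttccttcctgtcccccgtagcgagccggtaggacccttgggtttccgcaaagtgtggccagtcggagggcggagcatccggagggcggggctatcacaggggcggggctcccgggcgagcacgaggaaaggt
Bak1: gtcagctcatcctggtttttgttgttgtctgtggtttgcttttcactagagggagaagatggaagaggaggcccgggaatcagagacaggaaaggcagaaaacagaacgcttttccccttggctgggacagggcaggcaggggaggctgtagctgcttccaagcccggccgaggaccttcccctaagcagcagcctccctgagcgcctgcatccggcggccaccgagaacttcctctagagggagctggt

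Bcl2l11 encodes Bim, a BH3-only protein that binds all survival members and drives the death of leukocytes deprived of growth factor. Its intensities were 1058.1 and 1048.6 in unstimulated cells, 947.6 and 853.9 with IFNγ, 736.1 and 721.6 with opsonised SRBC, and 519.5 and 467.7 with both. The 4 groups did not overlap, and each added stimulus gave a lower level. Opsonised SRBC lowered Bcl2l11 by a log2 change of -0.53 ± 0.12 (1.45-fold, adjusted p = 0.00276), whereas the change with IFNγ alone was -0.23 ± 0.12 and missed the threshold (adjusted p = 0.18). With both stimuli the change was -1.10 ± 0.12, a 2.14-fold fall to 53.2% below the unstimulated level (adjusted p = 5.13e-08). The level with both was also below that with IFNγ alone (-0.87 ± 0.12, adjusted p = 7.55e-06) and that with opsonised SRBC alone (-0.56 ± 0.12, adjusted p = 0.000598). The single changes add up to -0.76, and the excess of the combination, -0.34 ± 0.16, missed the threshold of the interaction test (adjusted p = 0.348). A second, dimmer probe of the gene fell with both stimuli as well, from 319.2 and 351.1 to 217.0 and 234.6 (-0.57 ± 0.11, adjusted p = 0.000271 with every probe tested on its own). That probe read 291.0 and 290.1 with opsonised SRBC alone, a change of -0.20 that missed the threshold. The other 2 probes of Bcl2l11 were above the floor on 3 and 2 of the 8 arrays, in no group on both, and were not tested.

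Bid is the BH3-only protein that caspase-8 cleaves, and thereby carries death receptor signals to mitochondria. Its intensities were 1342.6 and 1530.7 in unstimulated cells, 2582.5 and 2856.2 with IFNγ, 1464.1 and 1610.4 with opsonised SRBC, and 2138.4 and 2276.9 with both. All 4 arrays with IFNγ were higher than all 4 without it, and unstimulated cells overlapped with those given opsonised SRBC alone. IFNγ raised Bid by 0.92 ± 0.11 (1.89-fold, adjusted p = 8.81e-07) and both stimuli raised it by 0.62 ± 0.11 (1.54-fold, adjusted p = 0.000104). Opsonised SRBC alone changed it by 0.10 ± 0.11 (adjusted p = 0.649). Although the arrays with both stimuli lay below those with IFNγ alone, that difference of -0.30 ± 0.11 missed the threshold (adjusted p = 0.0793), and so did the interaction of -0.40 ± 0.16 (adjusted p = 0.23). The second probe of Bid stayed between 204.2 and 260.9, close to the floor, and its changes of 0.12 with IFNγ and 0.17 with both were not called.

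Bbc3 encodes Puma, a BH3-only protein induced by p53 and by FoxO factors. Its intensities were 1076.3 and 1063.5 in unstimulated cells, 1040.2 and 923.4 with IFNγ, 684.7 and 726.1 with opsonised SRBC, and 785.8 and 636.4 with both. All 4 arrays that had received opsonised SRBC were lower than all 4 that had not, and the arrays with and without IFNγ overlapped among them. The change from unstimulated cells was -0.60 ± 0.12 with opsonised SRBC alone (1.52-fold, adjusted p = 0.00147) and -0.60 ± 0.12 with both (adjusted p = 0.000432), and these groups differed by 0.00 ± 0.12 (adjusted p = 0.985). IFNγ alone changed Bbc3 by -0.13 ± 0.12 (adjusted p = 0.525). The fall from IFNγ to both stimuli (-0.47 ± 0.12, adjusted p = 0.0103) was no longer called without the first IFNγ array (-0.38, adjusted p = 0.155) or without the second array with both (-0.32, adjusted p = 0.187). The gene's 2 dimmer probes, with mean intensities of 236.3 and 209.3, changed by 0.08 and -0.21 with both stimuli and by 0.04 and -0.13 with opsonised SRBC alone, and were not called, so the fall of Bbc3 rests on its brightest probe.

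**Figure D1:**
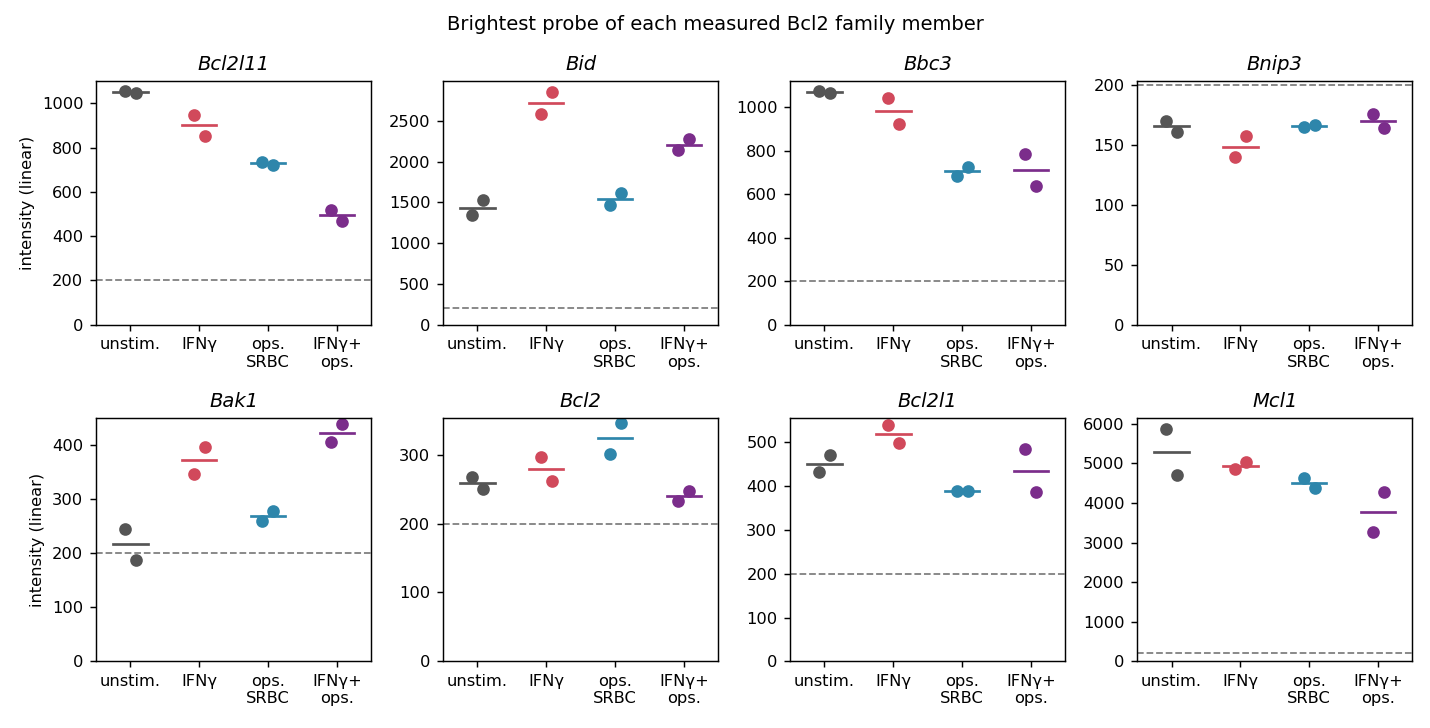
Intensity (linear axis from 0) of the brightest probe of the 8 members with a probe, by group, with 1 point per array, a bar at the mean of the 2 arrays and a dashed line at the floor of 200. Bcl2l11 steps down from unstimulated cells to both stimuli, Bid and Bak1 are higher on the arrays with IFNγ, Bbc3 is lower on those with opsonised SRBC, and Bnip3 stays below the floor.

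Bak1 was the only effector among the members with a probe. It sits in the outer mitochondrial membrane and forms pores there once activated. Its intensities were 244.7 and 187.5 in unstimulated cells, 345.5 and 395.9 with IFNγ, 258.2 and 278.3 with opsonised SRBC, and 405.3 and 437.0 with both. The 4 groups did not overlap, although 1 of the 2 unstimulated arrays lay below the floor. IFNγ raised Bak1 by 0.79 ± 0.13 (1.73-fold, adjusted p = 5.62e-05) and both stimuli by 0.97 ± 0.13 (1.96-fold, adjusted p = 1.68e-06). The level with both was above that with opsonised SRBC alone (0.65 ± 0.13, adjusted p = 0.00041) and not shown to differ from that with IFNγ alone (0.19 ± 0.13, adjusted p = 0.396). Opsonised SRBC alone gave 0.32 ± 0.13 (adjusted p = 0.112), which was called without the first unstimulated array (0.52, adjusted p = 0.038) and when arrays were centred on housekeeping genes (0.39, adjusted p = 0.0495). After a background correction (limma's normexp) the rise was 1.44 with IFNγ, 1.71 with both and 1.02 for both against opsonised SRBC alone, against the values of 0.79, 0.97 and 0.65 without it.

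Among the survival members, Mcl1 encodes a short-lived survival protein. It read 5865.9 and 4712.3 in unstimulated cells, 4847.8 and 5028.2 with IFNγ, 4635.9 and 4375.4 with opsonised SRBC, and 3261.3 and 4286.6 with both. The 2 arrays with both stimuli were the lowest of the 8. The fall with both was -0.49 ± 0.12 (1.41-fold, adjusted p = 0.0028), and the single stimuli gave -0.09 ± 0.12 and -0.22 ± 0.12 with no call. The call against unstimulated cells was lost without the first unstimulated array (-0.33, adjusted p = 0.0952) or the first array with both (-0.29, adjusted p = 0.114). The difference between both stimuli and IFNγ alone (-0.40 ± 0.12, adjusted p = 0.0301) was lost without either IFNγ array (-0.43 and -0.37, adjusted p = 0.11 and 0.171), without the first array with both (-0.20, adjusted p = 0.407) and with housekeeping centring (-0.34, adjusted p = 0.0781). Against opsonised SRBC alone the difference of -0.27 was called without the second array with both (-0.47, adjusted p = 0.0156).

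Bcl2, the founding survival gene of the family, read 267.5 and 249.4 in unstimulated cells, 297.2 and 262.0 with IFNγ, 301.0 and 346.2 with opsonised SRBC, and 232.0 and 247.0 with both. The arrays with opsonised SRBC alone were the highest and those with both the lowest. None of the changes against unstimulated cells was called: they were 0.11 with IFNγ, 0.32 ± 0.12 with opsonised SRBC (adjusted p = 0.0734) and -0.11 with both. With housekeeping centring the middle of these was called (0.39, adjusted p = 0.0373). The only call was both against opsonised SRBC alone, a change of -0.43 ± 0.12 (1.35-fold, adjusted p = 0.00623), which became -0.76 after normexp correction and was lost without the second opsonised SRBC array (-0.33, adjusted p = 0.0899). The other 2 probes of Bcl2 above the floor changed by 0.07 and -0.21 in that comparison and were not called, and of the remaining 5 of its 8 probes, 4 lay below the floor on all 8 arrays and 1 was above it on 3, in no group on both. For Bcl2 the interaction of -0.54 ± 0.16 missed the threshold (adjusted p = 0.084).

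Bcl2l1, which encodes Bcl-xL, was called in 0 of the 6 comparisons by limma. It read 431.1 and 469.5 in unstimulated cells, 538.5 and 497.7 with IFNγ, 388.3 and 387.3 with opsonised SRBC, and 483.5 and 386.1 with both. The IFNγ arrays were the highest, and the 2 arrays with both stimuli spanned the range of the unstimulated and opsonised SRBC arrays. Its changes against unstimulated cells were 0.20 ± 0.13 with IFNγ (adjusted p = 0.29), -0.21 with opsonised SRBC (adjusted p = 0.319) and -0.06 with both (adjusted p = 0.76).

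**Figure D2:**
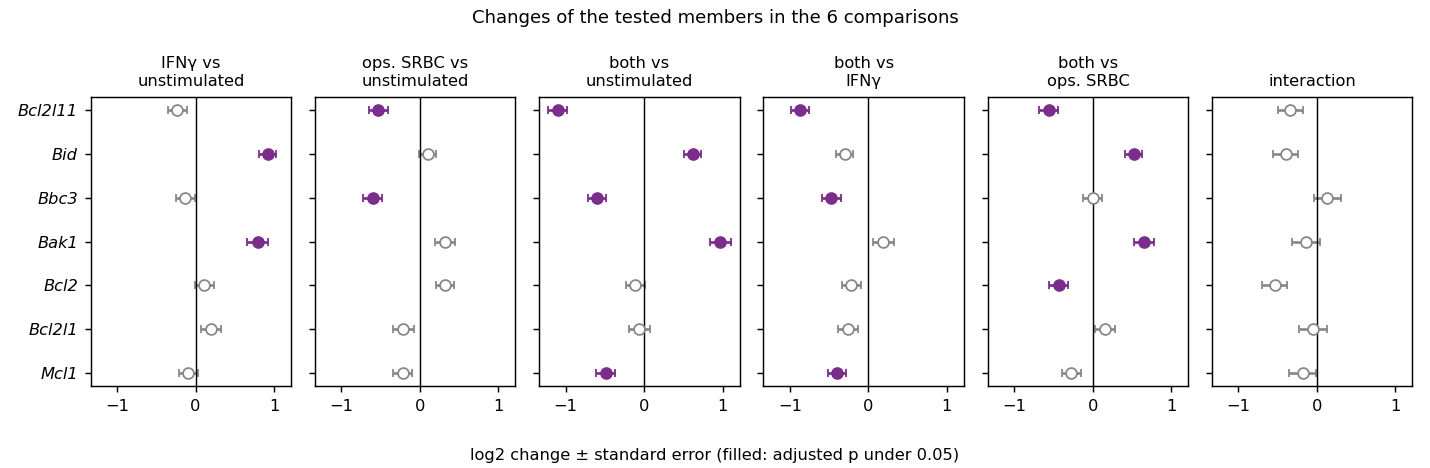
Log2 change (horizontal axis) of the brightest probe of the 7 tested members in the 6 comparisons, with bars of ± 1 SE from limma's fit to 8 arrays and filled points where the adjusted p was under 0.05. Bcl2l11 is left of 0 wherever it is filled, Bid and Bak1 are right of 0 wherever they are filled, and no point is filled in the interaction panel.

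**Figure D3:**
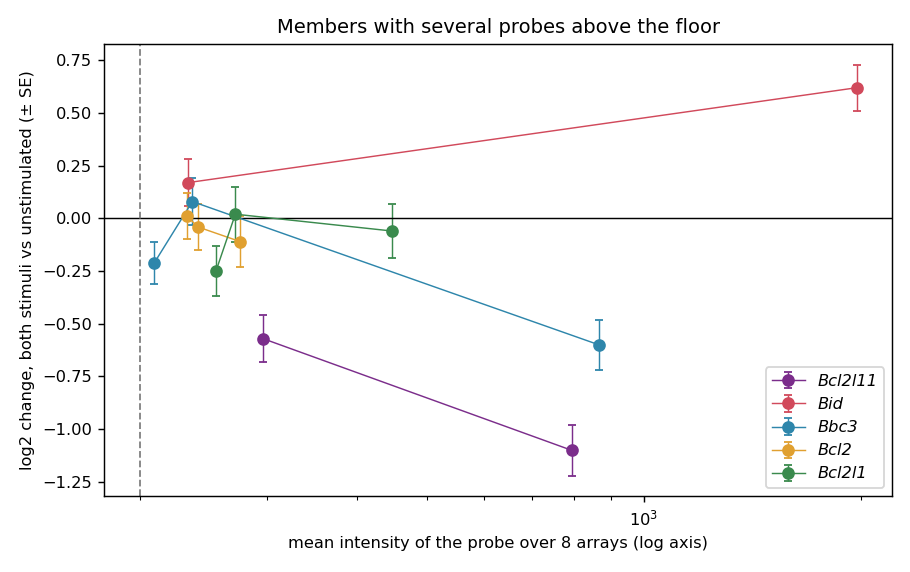
Log2 change with both stimuli against unstimulated cells (vertical axis, ± 1 SE) against mean intensity over 8 arrays (horizontal log axis) for every probe above the floor of the 5 members with several such probes, each point 1 probe and lines joining probes of a gene. The dashed line marks the floor of 200, and the dimmer probe of Bcl2l11 changed by -0.57 against -1.10 for the brighter.

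Counted over the 7 tested members, IFNγ alone raised 2 (Bid and Bak1) and lowered 0, where 21.8% of all tested features changed, 9.45% rising and 12.3% falling. Opsonised SRBC raised 0 and lowered 2 (Bcl2l11 and Bbc3), where 12.2% of all features changed (6.04% rose and 6.16% fell). Both stimuli raised 2 (Bid and Bak1) and lowered 3 (Bcl2l11, Bbc3 and Mcl1), where 35.0% of all features changed (14.5% rose and 20.6% fell). Bid and Bak1 were thus called with IFNγ, Bcl2l11 and Bbc3 with opsonised SRBC, and all 4 of these pro-apoptotic genes with the combination. Both stimuli against IFNγ lowered 3 of the 7 (Bcl2l11, Bbc3 and Mcl1) and raised 0, where 13.9% of all features changed (7.45% fell and 6.46% rose). Both stimuli against opsonised SRBC raised Bid and Bak1 and lowered Bcl2l11 and Bcl2, where 27.5% changed (11.3% rose and 16.2% fell). The first 3 comparisons share the unstimulated arrays and the last 3 share those with both stimuli. The median change of the 7 members was 0.11 with IFNγ, -0.21 with opsonised SRBC and -0.11 with both, beside medians of -0.04, -0.01 and -0.03 over all features. With so few members these shares describe the genes and say nothing particular to the family. Centring the arrays on 9 housekeeping genes moved the median of all features up by 0.068 with IFNγ, 0.069 with opsonised SRBC and 0.128 with both, and the share of calls that were higher went from 43.4% to 59.7%, from 49.5% to 69.2% and from 41.4% to 64.9%. For both stimuli against IFNγ that share went from 46.4% to 63.5%, and against opsonised SRBC from 41.1% to 54.4%, while no called member changed direction under any scaling tried. Cyclic loess moved it to 54.6% for IFNγ. The 9 housekeeping genes were not all unchanged themselves. Limma called 1 of them higher and 4 lower with both stimuli (median -0.1), and 1 higher and 2 lower with IFNγ. With opsonised SRBC 0 of them were called (median -0.1). Calls gained or lost with housekeeping centring thus depend on reference genes of which some changed.

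The interaction, the change made by opsonised SRBC with IFNγ minus that without it, was called by limma for 0 of the 7 members, where 2.42% of all features were called (1.11% above 0 and 1.30% below). At an unadjusted p under 0.05 it would have been called for 2, Bcl2 and Bid. For Bak1 the single changes sum to 1.11 and both stimuli gave 0.97, for Bbc3 the sum is -0.73 and the change -0.60, and for Mcl1 the sum is -0.31 and the change -0.49. The differences between change and sum were -0.14 ± 0.18, 0.13 ± 0.17 and -0.18 ± 0.17 in that order, near or below the size of their own errors. Bid (sum 1.02, change 0.62) and Bcl2 (sum 0.43, change -0.11) lay furthest below it.

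**Figure D4:**
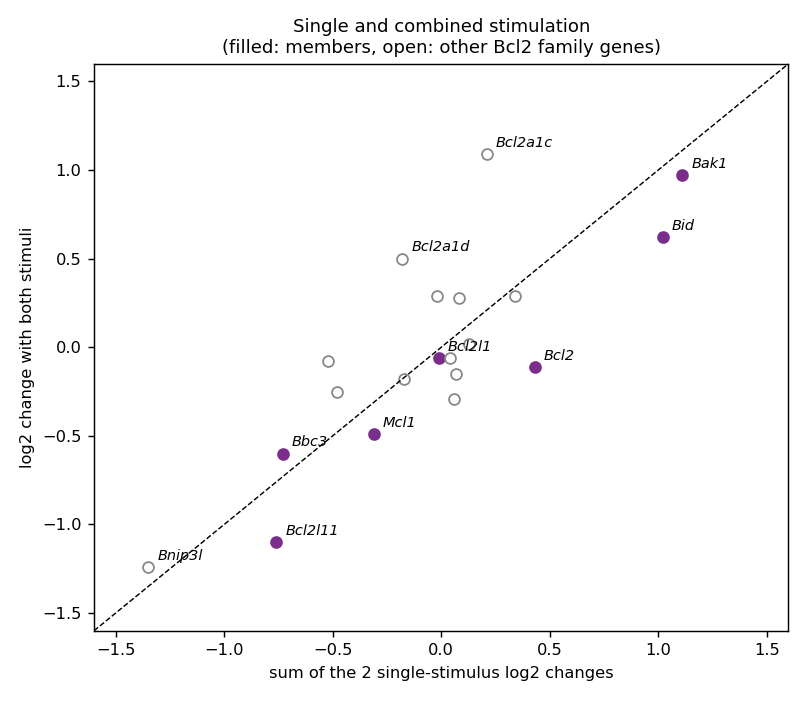
Log2 change with both stimuli (vertical axis) against the sum of the single-stimulus log2 changes (horizontal axis) for the 7 tested members (filled) and 13 other genes of the family or its partners (open), with the line of equality dashed. Bcl2a1c and Bcl2a1d lie above the line, Bid, Bcl2 and Bcl2l11 below it.

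The A1 proteins are survival members found mainly in blood cells, and the mouse genome carries several near-identical copies. Over the bases that could be aligned in the 250 before the start, Bcl2a1a and Bcl2a1d share 238 of 244 (97.5%), and Bcl2a1a and Bcl2a1c share 132 of 140 (94.3%). The windows of Bcl2a1a (chr9:88956670-88956919, plus strand) and Bcl2a1d (chr9:88731851-88732100, minus strand) show this likeness.
Bcl2a1a: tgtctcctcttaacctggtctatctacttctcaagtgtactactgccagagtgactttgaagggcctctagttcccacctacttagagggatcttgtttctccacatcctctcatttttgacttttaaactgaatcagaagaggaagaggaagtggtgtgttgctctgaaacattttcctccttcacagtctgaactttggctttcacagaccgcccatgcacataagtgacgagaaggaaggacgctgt
Bcl2a1d: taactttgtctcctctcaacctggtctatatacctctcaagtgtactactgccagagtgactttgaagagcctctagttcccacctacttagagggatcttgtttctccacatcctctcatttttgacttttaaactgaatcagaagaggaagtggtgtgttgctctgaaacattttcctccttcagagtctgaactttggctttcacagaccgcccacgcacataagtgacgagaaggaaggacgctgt
The copies are near-identical and probe sequences were not at hand here, so which copies a probe reads is uncertain. The values below are those of the probes annotated to Bcl2a1c and Bcl2a1d. Bcl2a1c read 295.1 and 330.1 in unstimulated cells, 359.5 and 305.9 with IFNγ, 381.9 and 304.0 with opsonised SRBC, and 599.5 and 736.3 with both. Bcl2a1d read 469.5 and 445.4, then 396.0 and 438.7, 439.0 and 446.2, and 588.1 and 712.8 in the same order. For both probes the 2 arrays with both stimuli stood above the other 6. The other 3 groups overlapped for Bcl2a1c, while for Bcl2a1d the IFNγ arrays lay below the opsonised SRBC and unstimulated arrays, which overlapped. The rise with both was 1.09 ± 0.14 for Bcl2a1c (2.13-fold, adjusted p = 8.69e-07) and 0.50 ± 0.12 for Bcl2a1d (1.42-fold, adjusted p = 0.00256), and the single stimuli gave calls for neither. Without the second array with both stimuli the rise of Bcl2a1d was 0.36 (adjusted p = 0.0605). Summed neutrophil markers were highest in the same group, at 4231 to 4300 against 3470 to 3568 in unstimulated cells. Of these markers, S100a8 read 1920 and 1901 in unstimulated cells and 2455 and 2540 with both. Ltf read 341 and 286, then 286 and 296, Elane 213 and 239, then 204 and 209, and Ngp 218 and 244, then 266 and 243. The part of the neutrophil markers in the rise of the A1 probes was not tested.

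The interaction was positive for both A1 probes. It was 0.88 ± 0.19 for Bcl2a1c (adjusted p = 0.0139) and 0.68 ± 0.18 for Bcl2a1d (adjusted p = 0.0364). That of Bcl2a1c was lost without the second array of each of the 4 groups (0.71 to 0.80, adjusted p up to 0.104), and that of Bcl2a1d without any single array other than the first with both stimuli (0.54 to 0.76, adjusted p up to 0.199).

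Bnip3l, also called Nix, a receptor that marks mitochondria for autophagy, was the relative with the widest fall. It read 2522.8 and 2497.0 in unstimulated cells, 1313.0 and 1435.1 with IFNγ, 1923.3 and 1692.3 with opsonised SRBC, and 1046.9 and 1077.0 with both, and the 4 groups did not overlap. The changes were -0.87 ± 0.11 with IFNγ (1.83-fold, adjusted p = 1.63e-06), -0.48 ± 0.11 with opsonised SRBC (adjusted p = 0.00477) and -1.24 ± 0.11 with both (2.36-fold, adjusted p = 3e-09). The middle change was not called without the second opsonised SRBC array (-0.38, adjusted p = 0.0566).

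Of the 19 other genes of the family and its binding partners, 13 were tested, and those of the 13 not described above gave small changes. Both stimuli raised 3 of the 13 (Bcl2a1c, Bcl2a1d and Pmaip1) and lowered 2 (Bnip3l and Bmf), IFNγ and opsonised SRBC each lowered 1 (Bnip3l), and neither raised any. The 5 called of 13 with both stand beside 35.0% of all features tested, and the 1 called with each single stimulus beside 21.8% and 12.2%. Pmaip1, which encodes the BH3-only protein Noxa, rose by 0.28 ± 0.10 with both (adjusted p = 0.0341), from 222.4 and 216.6 to 259.1 and 275.4, and was not called without either unstimulated array (0.30 and 0.26, adjusted p = 0.09 and 0.144), without the second array with both (0.24, adjusted p = 0.149) or without the floor (adjusted p = 0.071). The second probe of Pmaip1 had another pattern: it was below the floor in unstimulated cells (159.3 and 172.5), above it with opsonised SRBC alone (216.7 and 211.9) and below it with both (190.7 and 186.3). With every probe tested on its own, that probe was called higher with opsonised SRBC alone (adjusted p = 0.00661) and not with both (adjusted p = 0.12), so the probes of Pmaip1 disagree. Bmf, a BH3-only gene at the floor, fell at least 1.06-fold (adjusted p = 0.0448) and kept its call in 5 of 14 alternative fits. Bnip1 was higher with both than with IFNγ alone (0.42 ± 0.13, adjusted p = 0.0333), a call lost without either IFNγ array (0.49 and 0.35, adjusted p = 0.0796 and 0.238) or the first with both (0.24, adjusted p = 0.342). Bclaf1 was lower with both than with opsonised SRBC alone (-0.47 ± 0.15, adjusted p = 0.0204), which was lost without the first opsonised SRBC array (-0.17, adjusted p = 0.432) or either array with both (-0.46 and -0.48, adjusted p = 0.0773 and 0.0666). Bad, Bcl2l2, Bcl2l12, Bcl2l13, Bik and Bnip2 had no call in any of the 6 comparisons. Bok and Hrk lay below the floor on all 8 arrays, and no probe of Bcl2l10 or Bcl2l14 passed it on more than 1, so these 4 were not tested, and Bcl2l15 and Bcl2a1b were not analysed here.

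The pathways on either side of the family were read from lists of textbook genes. Their counts of called genes are to be read beside the shares over all features, which were 9.45% higher and 12.3% lower with IFNγ, 6.04% and 6.16% with opsonised SRBC, and 14.5% and 20.6% with both. Upstream, 12 of 16 death receptor genes were tested, and 6 rose and 1 fell with IFNγ, 4 rose and 0 fell with opsonised SRBC, and 7 rose and 0 fell with both (median change 0.51, beside -0.03 over all features). Fas, the receptor whose caspase-8 signal cleaves Bid, rose by 2.71 ± 0.11 with both (6.55-fold, adjusted p = 2.11e-15), by 1.58 with IFNγ and by 1.36 with opsonised SRBC. Mlkl, the executor of necroptosis, rose by 2.43 ± 0.11 with both, and Tnfaip3, which encodes the ubiquitin-editing inhibitor A20, by 2.17 ± 0.13. Traf1, a signalling adaptor, rose at least 2.86-fold from below the floor (adjusted p = 1.04e-10).

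Downstream of the pore, 10 of 14 apoptosome and caspase genes were tested, and IFNγ raised 1 and lowered 1, opsonised SRBC raised 1 and lowered 3, and both stimuli raised 1 and lowered 5, where 14.5% of all features rose and 20.6% fell. Those that fell furthest were the executioner caspase gene Casp6 (-0.77 ± 0.12, adjusted p = 2.39e-05), the apoptosome's initiator caspase gene Casp9 (-0.57 ± 0.12, adjusted p = 0.000446) and the mitochondrial flavoprotein gene Aifm1 (-0.45 ± 0.13, adjusted p = 0.00966), followed by Apaf1, the scaffold of the apoptosome (-0.41 ± 0.11, adjusted p = 0.0045). The call of Aifm1 was lost without the first unstimulated array (-0.25, adjusted p = 0.238) and with housekeeping centring (-0.32, adjusted p = 0.0693), and that of Apaf1 without the second array with both (-0.36, adjusted p = 0.0502) and with housekeeping centring (-0.28, adjusted p = 0.0746). Of 10 inhibitor of apoptosis genes 4 were tested, and 1 rose and 3 fell with both. Birc2, which encodes cIAP1, rose by 0.66 ± 0.13, and Birc5, which encodes survivin and is expressed in dividing cells, fell by 1.22 ± 0.11 on the log2 scale.

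Regulators of the members gave mixed counts. Of 15 tested p53 targets, of which Bbc3 is one by background, 1 rose and 6 fell with IFNγ (9.45% and 12.3% of all features), 3 rose and 2 fell with opsonised SRBC (6.04% and 6.16%), and 3 rose and 7 fell with both (14.5% and 20.6%). Sesn1 fell by 2.48 ± 0.11 and Gadd45a by 1.29 ± 0.12 on the log2 scale with both, whereas the cell cycle inhibitor gene Cdkn1a rose by 1.17 ± 0.10 and Plk2 by 1.15 ± 0.11. Bnip3 is a classic hypoxia target, and of 14 other tested hypoxia targets 5 rose and 0 fell with IFNγ, 2 rose and 1 fell with opsonised SRBC, and 2 rose and 2 fell with both. The 4 called of 14 with both compare with 35.0% of all features, and the 5 with IFNγ with 21.8%. The glucose transporter gene Slc2a1 (1.69 ± 0.11) and the hexokinase gene Hk2 (1.22 ± 0.11) rose, Pdk1 fell (-0.59 ± 0.12), and Egln3 fell at least 1.32-fold, a call lost without the first unstimulated array (-0.37, adjusted p = 0.053). Of 11 tested endoplasmic reticulum stress genes, 5 rose with each single stimulus with 0 falling, and 6 rose and 1 fell with both. Atf3 rose by 1.47 ± 0.13, Ppp1r15a by 1.01 ± 0.12 and Ddit3, which encodes Chop, a factor that can induce Bcl2l11 and Bbc3, by 0.61 ± 0.12, while Herpud1 changed by -0.69 ± 0.11.

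On the organelle itself, 12 mitophagy genes were tested, and 0 rose and 5 fell with IFNγ, 3 rose and 1 fell with opsonised SRBC, and 2 rose and 3 fell with both, where 21.8%, 12.2% and 35.0% of all features were called. The autophagy receptor gene Sqstm1 rose by 1.77 ± 0.10 with both although IFNγ alone lowered it (-0.78), and Bnip3l, which is counted in this list too, and the kinase gene Pink1 (-0.63 ± 0.13) fell. Ulk1, a kinase that starts autophagy, fell as well (-0.39 ± 0.12), a call lost without any of 3 arrays, the 2 unstimulated and the first with both (-0.40 to -0.33, adjusted p up to 0.0925), and with housekeeping centring (-0.26, adjusted p = 0.126). Of 10 tested genes of the outer mitochondrial membrane, where the family acts, 2 rose and 0 fell with both: the translocator protein gene Tspo (1.24 ± 0.09) and the channel gene Vdac2 (0.64 ± 0.12), whose protein binds Bak1.

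**Figure D5:**
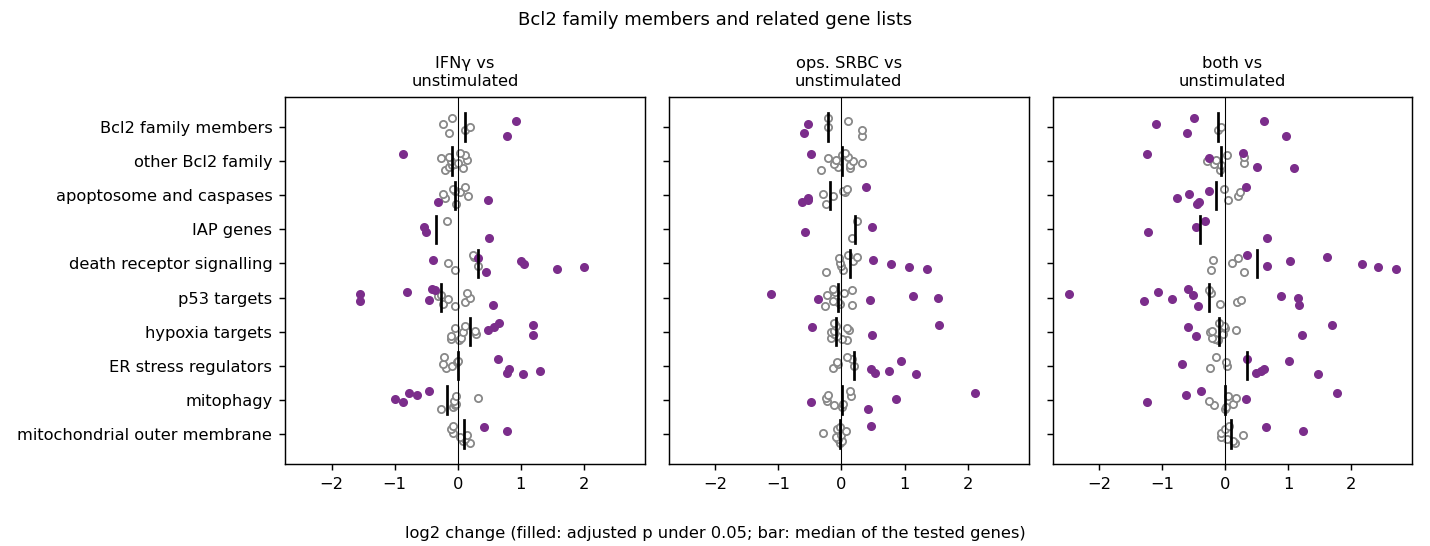
Log2 change (horizontal axis) of each tested gene of the family and of 9 related gene lists with IFNγ, opsonised SRBC or both against unstimulated cells, with 1 point per gene, filled where the adjusted p was under 0.05, and a bar at the list's median. With both stimuli the death receptor genes lie mostly to the right (median 0.51), and the tested members lie on either side of 0 (median -0.11).

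The genes with profiles most like those of the members with the widest range of group means were sought among genes whose own group means span at least 1 log2 unit. Over the 8 arrays, and as a description of 4 groups with 2 arrays each, Bcl2l11 correlated most with Msh6 (r = 0.991), Mcm4 (0.989) and Clspn (0.988). Bak1 correlated most with H2-Q7 (0.98), Snx10 (0.971) and Casp4 (0.969), and Bid with Oas1g (0.979), Mgl2 (0.979) and Tcf7l2 (0.977). The points share arrays and the same 4 groups, so a high r here means only a like order of the group levels.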

How the data were processed

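Total RNA of 8 macrophage samples in 4 groups (2 arrays each, grouped and numbered by sample title) was labelled with biotin and read on Illumina MouseRef-8 BeadChips, per the labels. The authors made the deposited intensity values of 25697 probes in GenomeStudio, as the submitters' processing notes say. The version and the normalization are not given in the sources here. The deposited arrays were quantile normalized, judging from the values, since sorted columns differed by at most 0.961%, and background was not subtracted (lowest intensity 119.8, most frequent 171.8). A second deposited table was not used because its 16 per-sample columns match no labels. Nothing states that replicates were separate cultures or mice, so p-values reflect the spread of these arrays, possibly technical, and 2 arrays per group limit the precision.

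From there, log2 intensities entered limma 3.58.1 in R 4.3.3 (4 group means, all 8 arrays, eBayes with trend, 4 residual and 22.7 total degrees of freedom, Benjamini-Hochberg adjustment per comparison, threshold 0.05). The floor was the mode plus 1.64 times the SD below it, an intensity of 200. Probes above it on both arrays of at least 1 group were kept (12333, 48%), and the brightest probe stood for each gene, which gave 9356 features. "At least N-fold" divides the brighter group's mean by the floor, or by the dim signal where that is higher. Genes were named from the platform annotation (23978 probes with 1 symbol, 0 with several, 1719 with none). Promoters came from RefSeq and were aligned with Biopython 1.88. The test was checked on simulated data.

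The members, lists and tests were chosen with earlier results of these data known. All members and other family genes were named. From each related list at most 4 genes were named, those with the widest called change with both stimuli, and profile likeness was given for the 3 members with the widest range of group means. Alternatives were no floor, cyclic loess, housekeeping centring, normexp with an offset of 16, every kept probe as a feature, a replicate block and each array left out.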

Additional observations from a re-analysis of the deposited data

Results flagged for a closer look

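The interaction, the change made by opsonised SRBC with IFNγ minus that without it, passed limma's threshold for 10 genes of the family and the related lists. The numbers tested in each list are given above. Over all features tested the share called was 2.42%, with 1.11% above 0 and 1.30% below. All comparisons in the interaction share the 8 arrays, and values are log2 differences ± SE with limma's adjusted p.

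It was positive for 3 genes. For 1 of them, Traf1, unstimulated cells read below the floor, where changes are understated, so the size of its interaction is uncertain. Traf1, an adaptor of TNF receptors, had 1.09 ± 0.17 (adjusted p = 0.000294), with adjusted p from 3.4e-05 to 0.00672 over 14 alternative fits. Bcl2a1c had 0.88 ± 0.19 (adjusted p = 0.0139, range 0.00571 to 0.104) and Bcl2a1d had 0.68 ± 0.18 (adjusted p = 0.0364, range 0.0164 to 0.199), both lost without single arrays as given above.

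It was negative for 7 genes, 4 of them from the list of endoplasmic reticulum stress genes. Chac1 had -1.50 ± 0.17 (adjusted p = 1.12e-05, range 6.35e-07 to 0.000478) and Slc2a1 had -1.06 ± 0.16 (adjusted p = 0.000228, range 0.000107 to 0.00397), and both kept the call in all 14 alternative fits. Atf4 had -0.82 ± 0.17 (adjusted p = 0.00909) and lost the call without the second unstimulated array (-0.71), the second opsonised SRBC array (-0.65) or the first IFNγ array (-0.83), with adjusted p up to 0.0838. Atf3 had -0.77 ± 0.18 (adjusted p = 0.019) and lost it without either unstimulated array (-0.77 and -0.76), the second opsonised SRBC array (-0.58), the first IFNγ array or the first with both (-0.68 each), with adjusted p up to 0.135. Pdk1 had -0.70 ± 0.17 (adjusted p = 0.0241) and lost it without any array other than the second opsonised SRBC array and the first with both (-0.72 to -0.58, adjusted p up to 0.107). Mlkl had -0.65 ± 0.16 (adjusted p = 0.0308) and lost it without any array other than the first with both (-0.70 to -0.49, adjusted p up to 0.191) and without the floor (adjusted p = 0.0511). Ddit3 had -0.66 ± 0.18 (adjusted p = 0.0465) and lost it without any array other than the first opsonised SRBC array and the first with both (-0.71 to -0.50, adjusted p up to 0.204), without the floor, with normexp and with the replicate block.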

How the results depend on the processing

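Of 588 values of the members over the alternative fits, 575 kept their side of the threshold. A further 9 fell below it, 4 rose past it, and 0 changed direction while called. For other family genes 1037 of 1092 kept their side of the threshold, and for list genes 6924 of 7224. Changes that were not called could change sign, as that of Mcl1 with IFNγ did (-0.25 to 0.07). With housekeeping centring 4 members were called with opsonised SRBC in place of 2, the additions being Bak1 and Bcl2. Leaving out 1 array at a time (a lone array was taken to vary like the other groups) gave 1 to 3 members called for both stimuli against IFNγ. Over all features the same fits gave 1297 to 2141 calls for IFNγ (2038 in full), 657 to 1174 for opsonised SRBC (1141), 725 to 1406 for both against IFNγ (1301) and 97 to 241 for the interaction (226). The lowest of these came without the second IFNγ array, the second unstimulated array, the first IFNγ array and the second unstimulated array in that order. Low counts beyond 1.5 times also came without the first unstimulated array (659 for opsonised SRBC, 136 for the interaction) and without IFNγ arrays (798 for both against IFNγ, 105 and 128 for the interaction). Between groups, the deviations of same-numbered arrays correlated at -0.039 to 0.044, which cannot tell whether these arrays shared a mouse, culture or day. With a replicate block 2, 2, 5, 3, 4 and 0 members were called, as without it, and 1079 features in place of 1141 with opsonised SRBC. With 2 arrays per group and no background subtraction, small changes of genes near the floor, such as Bmf and Pmaip1, could not be measured well, and those of Bnip3 not at all.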
